A study of Mus musculus with 4 samples.

Results

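The genes described here encode the translation initiation factors of the mouse, measured by RNA-seq in melanocyte stem cells, which supply pigment cells to the hair follicle, sorted from skin by FACS. Every gene whose symbol starts with Eif1, Eif2, Eif3, Eif4, Eif5 or Eif6 was taken, without the kinase gene Eif2ak2 and without symbols marked as pseudogenes. This gave 55 of the 27933 genes in the files, and 50 of the 55 passed the filter on low counts. Control mice received saline and stressed mice received RTX, an abbreviation that the labels do not spell out. The harvest followed 12 h after the injection. Each group has 2 libraries, and wherever a pair of values is given for a group, replicate 1 comes before replicate 2. The labels give no age, sex, strain, or genotype, and do not say whether the libraries of a group came from separate animals, so p-values reflect only how far these libraries spread, and that spread may be technical.

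Translation initiation brings a ribosome and the initiator tRNA to the start codon of an mRNA. The factor eIF4F, made of the cap-binding protein eIF4E, the scaffold eIF4G and the RNA helicase eIF4A, loads the mRNA, while eIF2 carries the initiator tRNA and eIF3 holds the assembly on the small ribosomal subunit. Cells under stress restrain this process at a pair of well-known points: kinases phosphorylate eIF2 and so block its exchange factor eIF2B, and the 4E-BP proteins, when not phosphorylated by mTORC1, keep eIF4E away from eIF4G. These controls act on proteins, which RNA counts do not measure.

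Total counts lay between 9273652 and 11854280 per library. Pigment cell markers were high in all libraries, summing over 10 genes to 24473 and 23339 CPM (counts scaled to a common library total) in control and 45890 and 43489 CPM in stressed libraries. Markers of keratinocytes, the main epidermal cell type, were also present and moved the other way: the 12 genes summed to 27036 and 16218 CPM in control and to 10079 and 8642 CPM in stressed libraries. All 12 were above 0 in every library. Both stressed libraries lay below both controls in 10 of them, against 22.9% of all tested genes, and Sfn and Dsg3 overlapped. Of the 10 pigment cell genes, 8 had both stressed libraries above both controls, against 21.8% of all tested genes, and Sox10 and Mitf overlapped. The part of the keratinocyte markers in the differences below was not tested. The 6 fibroblast, 5 endothelial and 7 immune markers summed to at most 23.5, 3.11 and 39.1 CPM in any library, and Cdh5, which defines endothelium, was at 0 in all of them. Of the Schwann cell markers, Sox2 was at 0 in 3 of 4 libraries, Pmp22 was at 127 and 296 CPM in control and at 184 and 214 CPM in stressed libraries, and Mbp was at 39.7 and 33.9 CPM in control and at 23.2 and 12.8 CPM in stressed libraries. The groups overlapped for Pmp22 and did not for Mbp, and the part of these cells was not tested either. In bulk RNA, fewer cells of a type and less RNA per cell cannot be told apart.

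The initiation factors as a set stood somewhat higher in stressed cells, by small amounts. They took 0.814% and 0.740% of all counts in the control libraries and 0.878% and 0.920% in the stressed ones, so both stressed libraries were above both controls. Of the 50 tested members, 39 had a fitted log2 fold change above 0 and 11 below, with a median of 0.16. The median was 0.32 without control replicate 1 and between 0.12 and 0.24 with any other library left out. Over all 13348 tested genes, 49.1% were above 0 and the median was -0.0091. In 22 members, or 44%, both stressed libraries exceeded both controls, and in 1 member both lay below them. Over all tested genes these shares were 21.8% and 22.9%. No member was called by edgeR's quasi-likelihood test at an adjusted p below 0.05, where the smallest value for a member was 0.254, but that test called 0% of all genes. At an unadjusted p below 0.05, 4 members were higher and 0 lower, against 5.17% and 7.6% of all genes. DESeq2 called 1 member higher and 0 lower, against 1.75% and 2.67% of all genes. By limma-voom 0 members were called, against 0% of all genes. At an unadjusted p below 0.05 it gave 4 members, a count not set against all genes. The forest plot of fold changes shows all 50 members by factor group. The largest difference was a 1.61-fold one, and 26 members stayed above 0 and 2 below 0 with any single library left out.

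**Figure D1:**
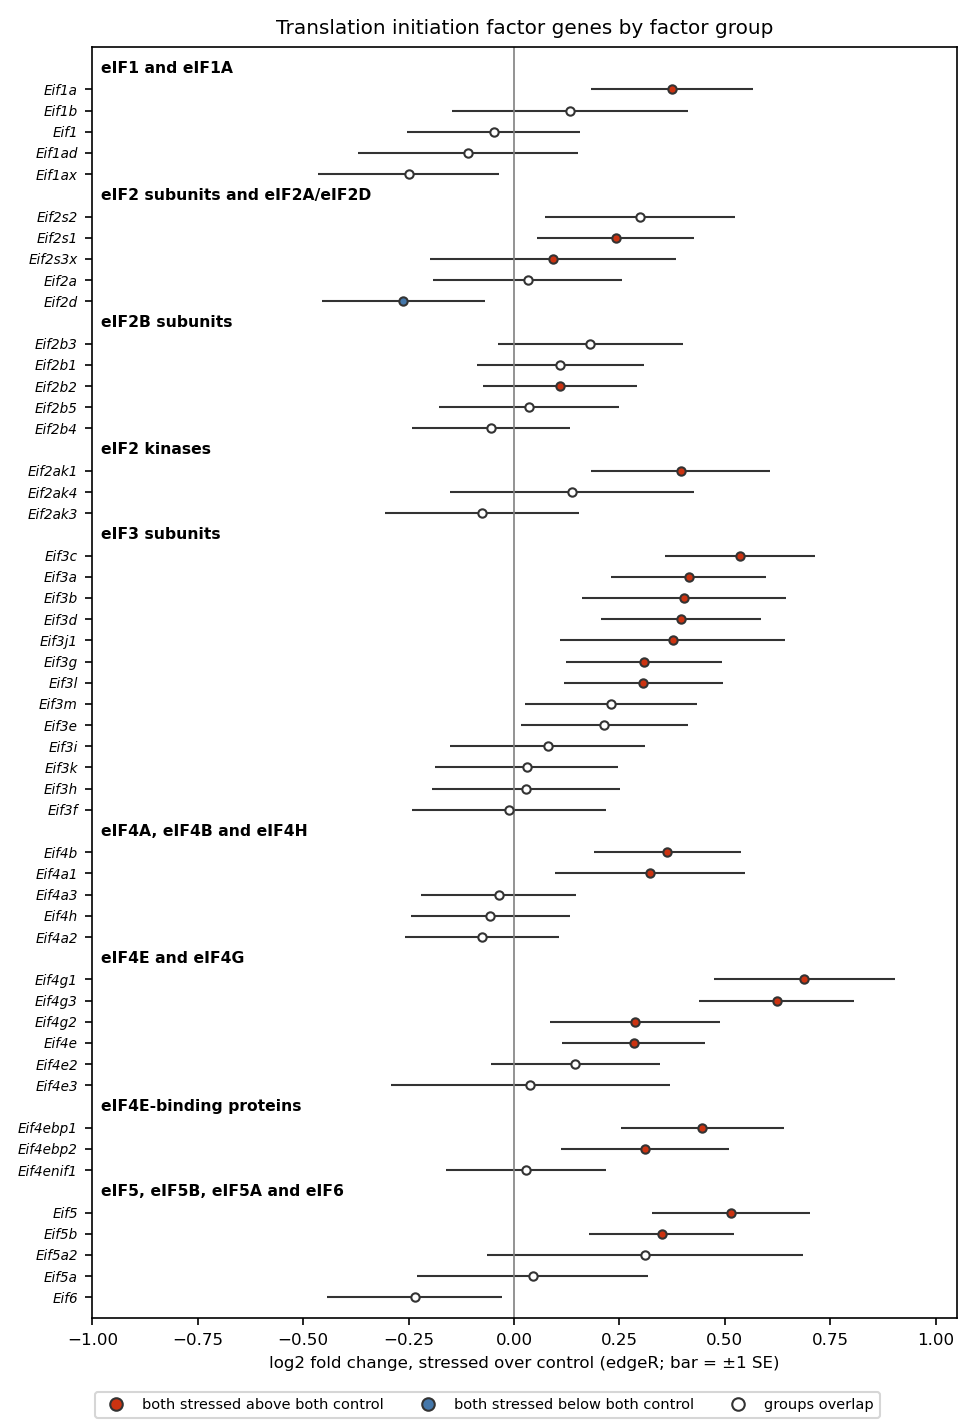
Fitted log2 fold change, stressed over control (x axis), of the 50 tested initiation factor genes, grouped by factor. Points are edgeR estimates from 2 libraries a group, bars are 1 standard error on each side, and the fill shows whether the groups overlap; all 6 eIF4E and eIF4G genes and 12 of 13 eIF3 genes lie above 0.

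The scaffold genes of eIF4F showed the largest differences. Eif4g1 (chromosome 16, 20668313-20692884, mm10) encodes eIF4G1, the main scaffold, which binds eIF4E, eIF4A and the poly(A)-binding protein. The control libraries held 273 and 287 CPM, from 2552 and 3383 counts, and the stressed libraries 387 and 515 CPM, from 4127 and 5661 counts. Both stressed libraries exceeded both controls, and the stressed pair was the wider one. By DESeq2 Eif4g1 rose, with a log2 fold change of 0.69, an SE of 0.23 and an adjusted p of 0.0485, close to the threshold. By edgeR the log2 fold change was 0.69 with an SE of 0.21, and the adjusted p of 0.272 did not pass. The DESeq2 call was lost when control replicate 1 was left out (adjusted p 0.122, log2 fold change 0.66), and also without stressed replicate 1 (0.302 and 0.89) or stressed replicate 2 (0.9997 and 0.48).

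Eif4g3 (chromosome 4, 137993022-138208508) encodes a second eIF4G scaffold with the same partners. Its level was 59.2 and 70.9 CPM in control and 97.3 and 103 CPM in stressed libraries. The groups did not overlap and the stressed pair was tight. Its edgeR log2 fold change was 0.62 with an SE of 0.18 and an adjusted p of 0.254, and DESeq2 gave an adjusted p of 0.134. Eif4g2 encodes DAP5, an eIF4G relative that cannot bind eIF4E. It was the most abundant of the 3 per length, at 825 ± 43 CPM against 1006 ± 27 CPM in stressed cells (SD, n = 2), with groups that did not overlap and a log2 difference of 0.29 (SE 0.20). Divided by gene length, Eif4g1 stood at 0.325 and 0.367 of the Eif4g2 level in control and at 0.384 and 0.530 in stressed libraries. The Eif4g1 to Eif4g3 ratio, by contrast, overlapped between groups, at 7.06 and 6.19 in control and 6.10 and 7.63 in stressed libraries.

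Eif4e, the gene of the cap-binding subunit, was at 77.8 and 72.9 CPM in control and 89.1 and 94.4 CPM in stressed libraries. The groups did not overlap, yet the log2 difference of 0.28 (SE 0.17) had an edgeR adjusted p of 0.552. Per length the Eif4g1 to Eif4e ratio was 2.92 and 3.27 in control and 3.62 and 4.53 in stressed libraries. Eif4e2, whose product 4EHP binds caps without recruiting eIF4G, was at 105 and 89.6 CPM in control and at 95.7 and 120 CPM in stressed libraries. Eif4e3, another cap-binding relative, was at 24.4 and 44.6 CPM in control and at 32.5 and 38.6 CPM in stressed libraries. In both of these genes the groups overlapped. Eif4e1b, an oocyte relative, had 0 counts in all 4 libraries, which allows up to 0.323 CPM in the smallest library, for counting error only.

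**Figure D2:**
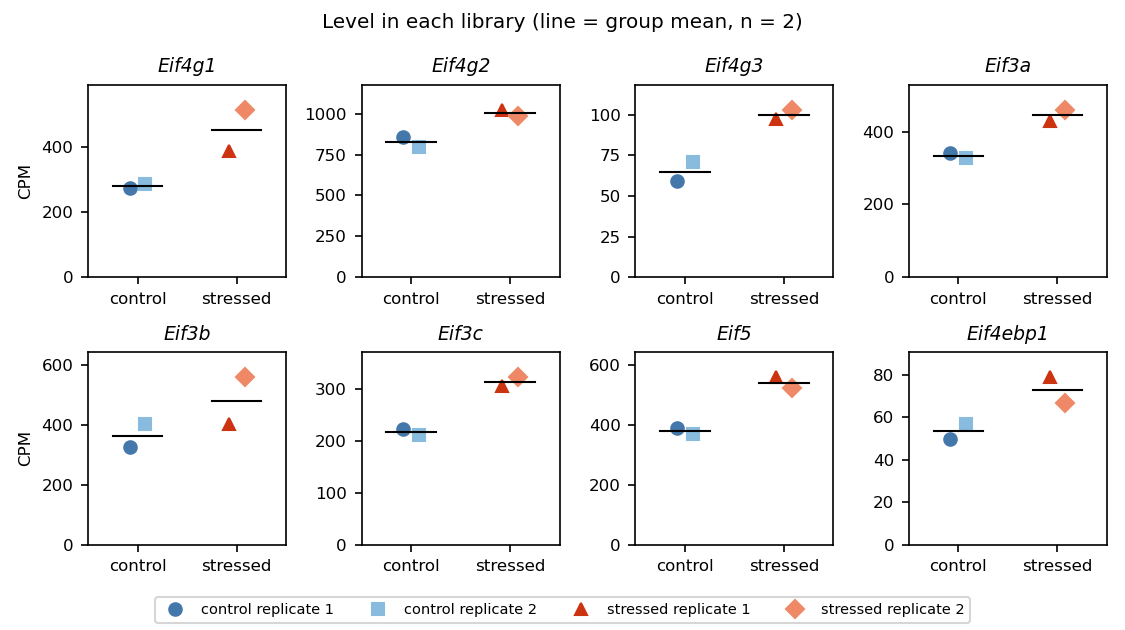
CPM (y axes, from 0) of 8 initiation factor genes in each of the 4 libraries, with a line at each group mean (n = 2). All 8 genes shown are among the 22 of 50 tested members with both stressed libraries above both controls. Over all tested genes this share is 21.8%. The gap is narrow for Eif3b, where stressed replicate 1 (401.1 CPM) is next to control replicate 2 (400.8 CPM).

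The helicase genes did not move as a block. Eif4a1, the gene of the main eIF4A helicase, was at 292 and 206 CPM in control and at 306 and 315 CPM in stressed libraries. Control replicate 2 was the low library, and without it the log2 difference fell from 0.32 to 0.094. Its paralog Eif4a2 was at 210 ± 0.3 and 199 ± 22 CPM (SD, n = 2), with overlapping groups. Per length the Eif4a1 to Eif4a2 ratio was 1.71 and 1.21 in control and 1.76 and 2.12 in stressed libraries. Eif4a3, which encodes the helicase of the exon junction complex, was at 167 ± 8 and 163 ± 19 CPM, with overlapping groups. Eif4b, whose product stimulates eIF4A, was at 195.7 CPM in both control libraries against 259 and 244 CPM in the stressed ones. This was the clearest separation of the group, with a log2 difference of 0.36 (SE 0.17) and an edgeR adjusted p of 0.451. Eif4h, a second helicase stimulator, was at 401 ± 37 and 386 ± 5 CPM, and its groups overlapped. The median of these 5 genes was -0.036, and it lay between 0.016 and 0.084 with 1 library left out.

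For Eif4ebp1 and Eif4ebp2, genes of the 4E-BP proteins that hold eIF4E back, the stressed libraries also lay above the controls, and neither gene passed the edgeR test. Eif4ebp1 (chromosome 8, 27260327-27275656) encodes 4E-BP1, the best-known mTORC1-regulated repressor of eIF4E and also a target of the stress factor ATF4. It was at 49.9 and 56.9 CPM in control and at 78.9 and 66.8 CPM in stressed libraries. The groups did not overlap, and the log2 difference of 0.45 (SE 0.19) had an edgeR adjusted p of 0.412 and an unadjusted p of 0.0586. Eif4ebp2, the second 4E-BP gene, was at 69.7 and 54.0 CPM in control and 75.5 and 77.9 CPM in stressed libraries, also without overlap. Set against these, per length, Eif4e stood at 0.144 and 0.138 of the summed Eif4ebp1 and Eif4ebp2 level in control and at 0.121 and 0.141 in stressed libraries, with overlapping groups. Eif4enif1, which encodes the eIF4E transporter 4E-T, was at 83.4 ± 13.1 and 85.1 ± 2.2 CPM (SD, n = 2). Eif4ebp3 had 1 and 2 counts in control and 0 and 2 in stressed libraries and was not tested. In the files 67.3% of its length is shared with Ankhd1, and with the counting options in the headers a read that overlaps 2 genes is assigned to neither.

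Among the 13 tested subunit genes of eIF3, the largest initiation factor, 12 had values above 0, with a median log2 fold change of 0.31, which fell to 0.18 without control replicate 2. In 7 both stressed libraries lay above both controls, against 21.8% of all tested genes. In 0 both lay below, against 22.9% of all tested genes, and in 6 the groups overlapped. The eIF3 complex has a core of 8 subunits, a, c, e, f, h, k, l and m, to which b, g and i attach as a module, d attaches near the mRNA channel and j binds loosely. The subunits with the largest values were Eif3c, Eif3a, Eif3b and Eif3d. Eif3c (chromosome 7, 126546455-126566411), a core subunit gene, was at 223 and 212 CPM in control and at 306 and 323 CPM in stressed libraries. It had tight pairs and a log2 difference of 0.54 (SE 0.18), with an edgeR adjusted p of 0.294 and a DESeq2 adjusted p of 0.0924. Eif3a (chromosome 19, 60761116-60790693), the largest subunit and a scaffold of the core, was at 341 and 328 CPM in control and at 430.4 and 461 CPM in stressed libraries. Its log2 difference was 0.41 (SE 0.18), with an edgeR adjusted p of 0.42.

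Eif3b and Eif3d had log2 differences of 0.40 and 0.40, and their stressed pairs were wider than those of Eif3c and Eif3a. Eif3b, the scaffold of the b, g and i module, was at 324 and 401 CPM in control and at 401 and 558 CPM in stressed libraries. Eif3d, which can bind caps by itself on some mRNAs, was at 75.6 and 79.6 CPM in control and at 90.6 and 114 CPM in stressed libraries. In both genes stressed replicate 2 was the highest library. For Eif3d, 32.7% of the gene length is shared with Gm17638, which lies on the opposite strand, and since counting was unstranded, reads over the shared part were assigned to neither gene. Eif3g, an RNA-binding subunit gene, and Eif3l, a core subunit gene, had log2 differences of 0.31 and 0.31 without overlap. Eif3j1, whose product helps release ribosomal subunits, was low at 16.2 ± 0.8 and 21.1 ± 2.1 CPM, and its near relative Eif3j2 had between 1 and 3 counts in every library and was not tested.

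The remaining 6 subunit genes, Eif3e, Eif3f, Eif3h, Eif3i, Eif3k and Eif3m, had overlapping groups, and in each of them control replicate 1 lay above at least 1 stressed library. In each of the 8 core subunit genes control replicate 2 lay below control replicate 1, with a median gap of -0.36 on the log2 scale, against 0.0025 over all tested genes. The same order held in 34 of the 50 tested members (median gap -0.10) and in 6640 of all 13348 tested genes. It held in all 5 genes of the group of Eif5 and Eif6 and in 0 of the 3 eIF2 kinase genes. Among the core genes Eif3f, for example, was at 115 and 78.2 CPM in control and at 99.9 and 92.1 CPM in stressed libraries. Its log2 difference of -0.012 became 0.31 when control replicate 1 was left out and -0.26 when control replicate 2 was, and it was 0.020 by limma-voom and 0.013 with the replicate number as a block. Eif3h behaved alike, at 131 and 90.9 CPM in control and at 116 and 110.1 CPM in stressed libraries. In both genes the stressed libraries lay between the controls. The plot of eIF3 subunits by library shows both patterns, with Eif3c, Eif3a and Eif3d apart from the controls and Eif3i, Eif3k, Eif3h and Eif3f between them. Control replicate 2 also had the largest mitochondrial share, at 2.07% of counts against 0.906% in control replicate 1 and 0.479% and 0.405% in the stressed libraries. The part of this difference between libraries was not tested.

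**Figure D3:**
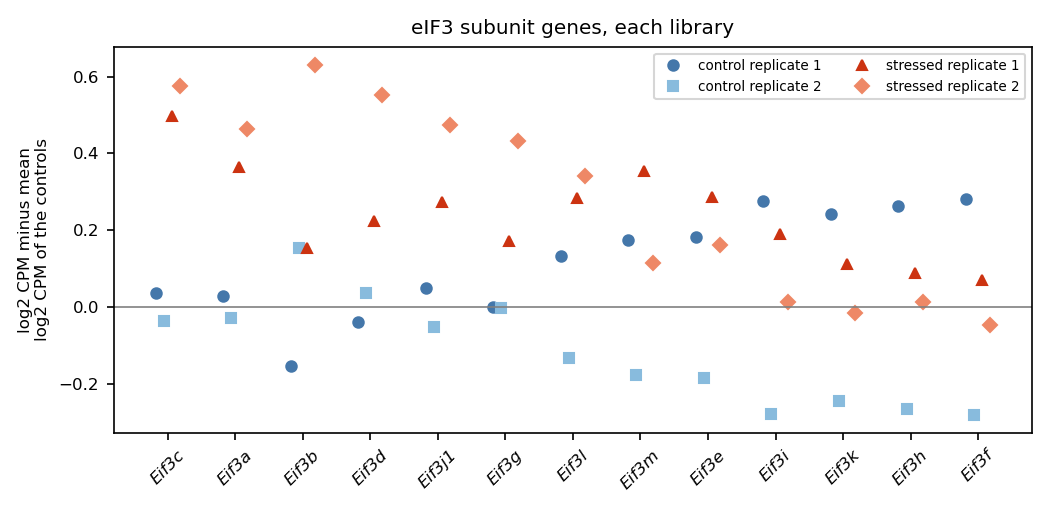
Log2 CPM of the 13 tested eIF3 subunit genes in each library, minus the mean log2 CPM of the 2 controls (y axis), ordered by fitted fold change. Both stressed libraries lie above both controls for 7 genes, against 21.8% of all tested genes. For Eif3i, Eif3k, Eif3h and Eif3f control replicate 1 is the highest and control replicate 2 the lowest library.

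Genes of eIF2, the carrier of the initiator tRNA, showed small differences. Eif2s1 encodes eIF2α, the subunit that the stress kinases phosphorylate. It was at 94.4 and 78.5 CPM in control and at 96.9 and 107 CPM in stressed libraries, with a log2 difference of 0.24 (SE 0.19) and an edgeR adjusted p of 0.654. The groups did not overlap, but stressed replicate 1 exceeded control replicate 1 only slightly. Eif2s2, the eIF2β gene, was at 51.7 and 39.8 CPM in control and at 51.3 and 61.2 CPM in stressed libraries, and its groups overlapped. Per length the Eif2s1 to Eif2s2 ratio stayed between 3.48 and 3.91 in all 4 libraries.

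The eIF2γ subunit is encoded on both sex chromosomes. Eif2s3x, the X-linked copy, was at 13.4 and 12.7 CPM in control and at 14.3 and 13.5 CPM in stressed libraries, with a log2 difference of 0.092 (SE 0.29) that was -0.017 with counts thinned to the smallest library. Eif2s3y, the Y-linked copy, had 0 counts in all 4 libraries, which allows up to 0.323 CPM in the smallest. The Y-linked genes Ddx3y and Kdm5d were likewise at 0 in all 4, Uty had 1 count in stressed replicate 1, and Xist, the X inactivation RNA, had 1734 and 2310 counts in control and 967 and 810 counts in stressed libraries.

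Eif2a and Eif2d encode factors that can deliver initiator tRNA without eIF2. Eif2a was at 38.5 ± 5.4 and 39.4 ± 1.8 CPM (SD, n = 2). Eif2d was at 82.3 and 74.1 CPM in control and at 58.4 and 71.9 CPM in stressed libraries. It was the 1 member whose stressed libraries both lay below both controls, with a log2 difference of -0.26 (SE 0.19) and an edgeR adjusted p of 0.64.

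The 5 subunit genes of eIF2B, the exchange factor that recharges eIF2, were close to level, with log2 differences from -0.054 for Eif2b4 to 0.18 for Eif2b3. Their median of 0.11 became 0.0091 with control replicate 2 left out, -0.011 with stressed replicate 2 left out and 0.19 with stressed replicate 1 left out. Eif2b5, the catalytic subunit gene, was at 143 and 118 CPM in control and at 116 and 151 CPM in stressed libraries, so the groups overlapped. Eif2b3 was at 44.7 and 49.7 CPM in control and at 46.6 and 60.5 CPM in stressed libraries, and Eif2b4 at 56.5 ± 3.2 and 54.4 ± 2.9 CPM. Eif2b1 and Eif2b2, subunits of the regulatory core, differed by 0.11 and 0.11. Of the 5, Eif2b2 alone had both stressed libraries above both controls, and in the others the groups overlapped. Over all tested genes 21.8% had both stressed libraries above both controls, so 1 of 5 is close to that share.

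The kinases that phosphorylate eIF2α each answer a different stress. Eif2ak1 encodes HRI, which senses low haem and mitochondrial stress. It was at 75.5 and 86.8 CPM in control and at 90.9 and 123 CPM in stressed libraries, without overlap. Its log2 difference of 0.40 (SE 0.21) had an edgeR adjusted p of 0.501. In the files its exons overlap those of Aimp2 on the opposite strand over 8.59% of its length. Eif2ak3, the gene of the endoplasmic reticulum stress kinase PERK, was at 51.1 and 73.5 CPM in control and at 60.6 and 57.6 CPM in stressed libraries. Eif2ak4, the gene of the amino acid sensor GCN2, was at 26.7 and 39.7 CPM in control and at 31.7 and 41.3 CPM in stressed libraries. For PERK and GCN2 the groups overlapped and control replicate 2 lay well above control replicate 1, and their log2 differences of -0.077 and 0.14 became 0.21 and 0.46 with control replicate 2 left out and -0.30 and -0.11 with control replicate 1 left out.

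Factors of start codon choice and subunit joining differed among themselves. Eif5 (chromosome 12, 111538101-111546753) encodes the protein that triggers GTP hydrolysis by eIF2 at the start codon. It was at 389 and 368 CPM in control and at 559 and 523 CPM in stressed libraries, with tight pairs. The log2 difference of 0.51 (SE 0.19) had an edgeR adjusted p of 0.33 and a DESeq2 adjusted p of 0.0986. Eif1, whose product opposes eIF5 and favours scanning past poor start codons, was at 522 and 604 CPM in control and at 582 and 506 CPM in stressed libraries. Its groups overlapped. Per length the Eif5 to Eif1 ratio was 0.385 and 0.315 in control and 0.496 and 0.534 in stressed libraries.

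Eif1b, a close relative of Eif1, was at 28.4 ± 7.8 and 31.1 ± 1.9 CPM. The eIF1A protein, which works with eIF1, is encoded by Eif1ax on the X chromosome and by Eif1a, and the split of reads between such close copies is uncertain. Eif1ax was at 151 and 110 CPM in control and at 115 and 105 CPM in stressed libraries, whereas Eif1a was at 143 and 179 CPM in control and at 208 and 209.7 CPM in stressed libraries. The fitted differences of the pair had opposite signs, -0.25 (SE 0.21) and 0.37 (SE 0.19), and neither passed, at edgeR adjusted p values of 0.697 and 0.486. Eif1ad, whose product shares the eIF1A fold, was at 79.7 ± 20.6 and 73.8 ± 17.2 CPM.

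Eif5b, the gene of the GTPase that joins the ribosomal subunits, was at 74.5 and 69.4 CPM in control and at 88.7 and 94.6 CPM in stressed libraries, without overlap and with a log2 difference of 0.35 (SE 0.17). In the files 16.9% of its length is shared with Rev1 on the opposite strand. Eif5a, whose hypusine-bearing product acts mainly in elongation, was at 692 and 441 CPM in control and at 525 and 643 CPM in stressed libraries, a spread wider within groups than between them. Its relative Eif5a2 was low, at 10.2 ± 2.6 and 12.6 ± 3.1 CPM. Eif6, whose product keeps the large ribosomal subunit from joining early, was at 202 and 167 CPM in control and at 139 and 174 CPM in stressed libraries. Its log2 difference was -0.24 (SE 0.21), with an edgeR adjusted p of 0.704 and overlapping groups.

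Levels of subunits of 1 complex differed several-fold when divided by gene length. Among the eIF3 subunits other than the loosely bound j, the highest stood above the lowest by 4.18-fold to 6.76-fold within a library, with Eif3g on top at a mean of 161 CPM per kilobase and Eif3i lowest at 29.9. For eIF2, Eif2s1 was at 27.7, Eif2s2 at 7.55 and Eif2s3x at 3.54 CPM per kilobase. Across all members Eif1 (264 CPM per kilobase) and Eif5a (242) were highest and Eif5a2 (2.27) was lowest among those tested. The length is that of all annotated exons together, which is longer than any 1 transcript where isoforms or long ends are annotated but little used, so these levels are lower limits for such genes. In the plot of levels per length, neighbours in the order often overlapped between libraries, as Eif4e, Eif4e2 and Eif4e3 did.

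**Figure D4:**
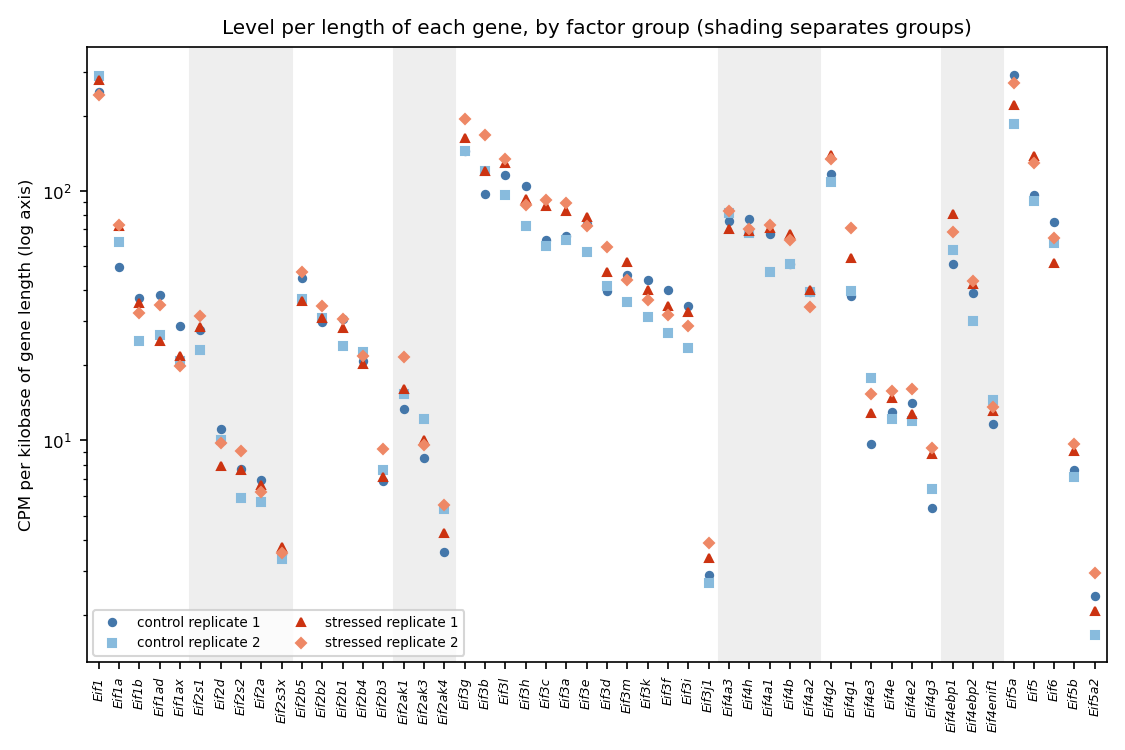
CPM per kilobase of annotated exon length (y axis, log scale) of the 50 tested genes in each of the 4 libraries, ordered by mean within each factor group. Eif1 and Eif5a are highest, at means of 264 and 242, and the subunits of eIF2 and eIF3 spread over a wide range.

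Promoter sequences are shown for the 4 members with an unadjusted edgeR p below 0.05, a choice made by that p alone. Each is the 250 bases before the gene start in RefSeq, build GRCm38.p6, 5′ to 3′ on the gene's strand. Capitals mark matches on either strand to the E-box CACGTG, bound by factors such as MYC and, in pigment cells, MITF, or to the ETS core CCGGAAG. The third motif searched was TGATGNAA, the element read by ATF4, and none of the motifs overlapped another here. The positions are chr16:20672477-20672726 (+), chr4:137993205-137993454 (+), chr7:126566367-126566616 (-) and chr12:111537851-111538100 (+).
Eif4g1: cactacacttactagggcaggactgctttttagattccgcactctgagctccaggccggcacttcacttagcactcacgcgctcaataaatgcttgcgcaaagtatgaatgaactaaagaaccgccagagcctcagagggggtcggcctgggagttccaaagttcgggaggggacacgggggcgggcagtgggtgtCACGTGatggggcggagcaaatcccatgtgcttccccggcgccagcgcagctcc
Eif4g3: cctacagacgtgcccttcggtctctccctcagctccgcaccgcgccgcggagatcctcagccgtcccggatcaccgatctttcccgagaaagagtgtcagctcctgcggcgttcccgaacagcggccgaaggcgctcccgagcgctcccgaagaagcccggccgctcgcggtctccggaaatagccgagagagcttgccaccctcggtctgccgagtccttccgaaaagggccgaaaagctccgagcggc
Eif3c: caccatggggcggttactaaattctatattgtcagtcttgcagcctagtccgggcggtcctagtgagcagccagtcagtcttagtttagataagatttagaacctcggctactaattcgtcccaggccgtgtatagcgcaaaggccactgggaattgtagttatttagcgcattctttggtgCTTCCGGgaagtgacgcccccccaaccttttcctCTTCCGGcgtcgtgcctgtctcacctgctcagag
Eif5: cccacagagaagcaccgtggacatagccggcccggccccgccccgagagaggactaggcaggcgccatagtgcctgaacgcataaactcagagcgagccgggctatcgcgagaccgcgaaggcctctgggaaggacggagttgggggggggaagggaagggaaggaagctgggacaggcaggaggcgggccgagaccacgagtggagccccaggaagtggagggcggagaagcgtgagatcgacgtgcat
The Eif4g1 window holds 1 E-box, which begins 54 bases before the RefSeq start, and the Eif3c window holds 2 ETS cores, which begin 68 and 34 bases before it. None of the 3 motifs was found in the Eif4g3 and Eif5 windows. The RefSeq starts of Eif4g1 and Eif4g3 lie 4414 and 433 bases from the outermost starts in the counted annotation. Other starts of these genes are thus not covered. Of the 55 members, 43 had an entry, 41 of them tested. Among these 41 the E-box was present in 7 (17.1%), namely Eif1b, Eif3f, Eif3k, Eif4a1, Eif4g1, Eif4h and Eif5a2, against 6.69% of the 17993 promoters of genes in the files. The ETS core was present in 10 (24.4%) against 9.01%, and the ATF4 element in 1 (2.44%), Eif2s3x, against 3.11%. The 41 members all passed the filter on low counts, whereas the 17993 promoters include genes that did not. These shares thus compare unlike sets, and a share over tested genes alone was not taken. Of the 7 members with an E-box, Eif4g1 and Eif4a1 had both stressed libraries above both controls. This held for 44% of all tested members and 21.8% of all tested genes. With 7 genes it is no result about the motif.

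Other genes of the pathway were taken from lists of initiation partners and of the mTORC1 arm. Of 24 partners and regulators, all tested, 16 had values above 0, with a median of 0.16, and DESeq2 called 1 higher and 0 lower, close to its shares of 1.75% and 2.67% over all genes. With 1 library left out the median lay between 0.10 and 0.21. The gene called was Dnajc3, which encodes P58IPK, an inhibitor of the kinases PERK and PKR. It rose by DESeq2 from 183 and 193 CPM in control to 297 and 282 CPM in stressed libraries, with a log2 fold change of 0.63, an SE of 0.20 and an adjusted p of 0.0344, while the edgeR adjusted p was 0.243. Larp1, which encodes a repressor of mRNAs for ribosomal proteins and a target of mTORC1, was at 140 and 153 CPM in control and at 199.9 and 230.1 CPM in stressed libraries, with an edgeR adjusted p of 0.293. Ppp1r15a, the gene of the stress-induced eIF2α phosphatase subunit GADD34, was at 300.2 and 423 CPM in control and at 351 and 323 CPM in stressed libraries, with overlapping groups.

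In the mTORC1 arm, 13 of 16 tested genes had values above 0, with a median of 0.093, and DESeq2 called 1 higher and 0 lower, against the same 1.75% and 2.67% of all genes. Leaving out stressed replicate 1 moved the median to 0.036, leaving out stressed replicate 2 to 0.23 and leaving out control replicate 2 to 0.16. The call was Ddit4l, a relative of the mTORC1 inhibitor gene Ddit4, with 2 and 0 counts in control and 46 and 60 counts in stressed libraries and a DESeq2 adjusted p of 0.00251 (edgeR adjusted p 0.151). Mtor, the kinase gene, was at 44.6 and 64.9 CPM in control and at 66.3 and 72.2 CPM in stressed libraries. Sesn1, which encodes a leucine-sensing inhibitor of the pathway, was at 123 and 147 CPM in control and at 107 and 72.2 CPM in stressed libraries. Its log2 difference was -0.59 (SE 0.24), with an edgeR adjusted p of 0.388. The related Sesn2 went the other way, at 39.1 and 23.0 CPM in control and 48.5 and 46.6 CPM in stressed libraries. Its log2 difference was 0.62 (SE 0.30), with an edgeR adjusted p of 0.454. Sesn3, also on the list, had overlapping groups.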

How the data were processed

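Per the file headers, the deposited values are counts of reads per gene, whole numbers that the authors obtained with featureCounts 1.6.1. Exon reads were summed by gene name on an mm10 annotation at a minimum mapping quality of 30, without strand or paired-end options. STAR 2.5.3, Trim Galore 0.4.1, mm10 and DESeq2 1.22.2 are named in the submitters' processing notes. The labels' protocols name Smart-Seq V4 for the libraries. In the file headers both stressed libraries carry other replicate numbers, so the authors' own numbering may differ.

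In R 4.3.3, edgeR 4.0.16's filterByExpr (minimum count 10) kept 13348 genes. Libraries were scaled by TMM and compared by the quasi-likelihood F-test, two-sided, with Benjamini-Hochberg adjustment over all tested genes and calls below 0.05. Fold changes are fitted log2 values, and the SE is their size over the square root of F. CPM uses TMM-scaled totals, except the summed marker lists and shares of counts, which use all counts. DESeq2 1.42.0 and limma-voom (limma 3.58.1) were alternatives, beside other scalings and filters, a replicate block, thinning and leaving out each library. The libraries of a group differed beyond sampling noise, at chi-square values per degree of freedom of 57.28 (control) and 18.67 (stressed). In simulated data of 13348 genes, edgeR recovered 44% of changes of 1 log2 unit and 89% of changes of 2. Among its 142 calls 9 were false. DESeq2 recovered 45% and 92%, with 14 false among 151. Simulated variance followed the trend with abundance, without the spread of single genes around it. Changes were put only in genes with a mean of at least 10 CPM. These shares may thus overstate the power in the real data, where edgeR called 0 genes. The members, lists and named genes were chosen with earlier results of these data known. Every tested member is named; full values are given for fixed members, for the largest differences of each factor group, and for those called or with an unadjusted p below 0.05. Protein sequences were not used here. Some marker genes of other cell types, and sums that include them, are not reported here.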

Additional observations from a re-analysis of the deposited data

How the results depend on the processing

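Every tested member had at least 99 counts in each library, and each test rests on 2 libraries a group. No member was called by edgeR under any alternative scaling, filter, block, thinning or left-out library, and DESeq2 called 1. Members higher at an unadjusted p below 0.05 numbered 4, and between 0 and 8 with 1 library left out (8 and 7 when control replicate 1 or 2 was dropped, 1 and 0 when stressed replicate 1 or 2 was). Members lower numbered 0 to 1. Over all genes edgeR called 0, but 760 when every gene with a count was kept, and 628 or 739 when control replicate 1 or 2 was dropped, and DESeq2 called 589. DESeq2 called 1 initiation partner and 1 gene of the mTORC1 arm, and edgeR called 1 of that arm without the filter and from 0 to 2 with 1 library left out (2 without control replicate 1). With 1 library left out, medians ranged from -0.12 to 0.19 for eIF1 and eIF1A, -0.11 to 0.46 for the eIF2 kinases and 0.041 to 0.42 for the group of Eif5 and Eif6. They ranged from -0.011 to 0.19 for eIF2B, 0.058 to 0.19 for eIF2 (0.092 with all libraries, and 0.19 without control replicate 1), 0.18 to 0.40 for eIF3, 0.20 to 0.37 for the eIF4E-binding proteins (0.31 with all libraries, and 0.20 without control replicate 2) and 0.12 to 0.32 for all 50 members, and the DESeq2 value of Eif4g1 from 0.48 to 0.89. The highest eIF2B subunit stood 5.37-fold above the lowest per length and 2.69-fold without division by length. The lone library of a group is assumed there to vary like the other group.

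Of 50 members 27 kept 1 sign under all 13 alternatives. With 1 library left out, log2 differences that changed sign ranged from -0.15 to 0.063 for Eif1, -0.36 to 0.19 for Eif1ad, -0.46 to 0.012 for Eif1ax, -0.12 to 0.46 for Eif1b, -0.10 to 0.19 for Eif2a, -0.30 to 0.21 for Eif2ak3, -0.11 to 0.46 for Eif2ak4, -0.054 to 0.31 for Eif2b1, -0.011 to 0.36 for Eif2b3, -0.10 to 0.0091 for Eif2b4, -0.16 to 0.22 for Eif2b5, -0.26 to 0.31 for Eif3f, -0.21 to 0.33 for Eif3h, -0.17 to 0.40 for Eif3i and -0.19 to 0.31 for Eif3k. They ranged from -0.19 to 0.042 for Eif4a2, -0.15 to 0.084 for Eif4a3, -0.019 to 0.30 for Eif4e2, -0.32 to 0.54 for Eif4e3, -0.11 to 0.20 for Eif4enif1, -0.15 to 0.054 for Eif4h and -0.24 to 0.42 for Eif5a. Eif2s3x was at -0.017 when thinned, and Eif3f at 0.020 by limma-voom and 0.013 with the replicate block. The cause of these changes was not tested beyond the library left out.

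The replicate numbers do not pair the samples by any label, and the deviations of same-numbered libraries correlated at 0.17 across genes. With the replicate block 0 genes were called, and 4 members were higher at an unadjusted p below 0.05, as without it.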

Other observations

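Elongation and termination factors, which act after initiation, mostly had small differences, with 1 larger one, in Gspt2. Of 10 tested genes on this list 8 had values above 0, with a median log2 difference of 0.16, which became 0.013 with control replicate 2 left out and 0.31 with control replicate 1 left out. DESeq2 and edgeR called 0 of them, and 0 had an unadjusted edgeR p below 0.05. Eef1a1, the gene of the factor that delivers aminoacyl-tRNA, stood at 1398 ± 280 CPM against 1463 ± 151 CPM in stressed cells (SD, n = 2). Eef2, the translocation factor gene, was at 806 and 774 CPM in control and at 845 and 884 CPM in stressed libraries, without overlap. Gspt2, a termination factor gene, was at 9.53 and 11.9 CPM in control and at 4.88 and 7.73 CPM in stressed libraries. Its log2 difference of -0.77 (SE 0.41), further from 0 than that of any tested initiation factor gene, had an edgeR adjusted p of 0.505.

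Eif2c5, which the symbol rule also takes in, is annotated in GENCODE M21 as a long noncoding RNA on the X chromosome. Its symbol is that of the Argonaute genes' former names and it is no initiation factor. It had 0 counts in both control libraries and 9 in each stressed library, and was not tested. The lower stressed value was 2.51 times a floor of 3 counts per control library. That floor covers counting error of the controls only, and the 9 counts carry counting error too. Xist, also X-linked, was at 191 ± 7 CPM in control and at 82.2 ± 12.1 CPM in stressed libraries (SD, n = 2). It was called lower by DESeq2 (log2 fold change -1.21, SE 0.23), while its edgeR adjusted p of 0.121 did not pass.

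Across the 50 tested members, Spearman's rho between the log2 fold change and gene length was 0.097, and with mean CPM it was 0.13. Over all tested genes these were 0.075 and 0.16. These values describe genes, which are not independent replicates.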
